A study of Mus musculus with 4 samples.

Results

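The miRNA genes Mir196a-1, Mir196a-2, Mir196b and Mir615 lie inside 3 of the mouse Hox clusters, Hoxa, Hoxb and Hoxc. They were taken from the deposited table by gene ID, and all 4 were found among its 2976 rows and 643 miRNA rows. The libraries came from stroma of CD1 embryos at E10.5, taken next to the wolffian duct, whose outgrowth, the ureteric bud, starts the kidney and ureter. The cells carried Tbx18-Cre and CAG-tdTomato, were described as wildtype in the labels, and were sorted as Tbx18+, so the population holds cells with past or present Tbx18 promoter activity, as reported by Cre, and the offspring of such cells. There were 4 libraries of this 1 group, with no comparison group. The labels do not say whether they came from separate embryos, pools or litters, so each spread and p-value covers only how these libraries differ and may be technical in origin.

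Hox genes encode transcription factors that give cells along the body axis their positional identity, and each cluster is arranged from genes active towards the head to genes active towards the tail. The miR-196 genes sit between Hox groups 9 and 10 or just beyond group 9, and miR-196 is known to repress Hox mRNAs, with cleavage of Hoxb8 mRNA in mouse embryos as the best known case. Mir615 lies within Hoxc5.

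The mature sequences are shown because Mir196a-1 and Mir196a-2 yield the same miR-196a-5p, from which miR-196b-5p of Mir196b differs by 1 base. Sequences are from RefSeq, build GRCm38.p6, written 5′ to 3′ with the seed (bases 2 to 8, which lead target pairing) in capitals.
miR-196a-5p, from Mir196a-1 and Mir196a-2: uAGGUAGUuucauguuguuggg
miR-196b-5p, from Mir196b: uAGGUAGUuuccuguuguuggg
miR-615-3p, from Mir615: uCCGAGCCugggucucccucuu
miR-615-5p, from Mir615: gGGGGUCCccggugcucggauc
Mir196a-1, Mir196a-2 and Mir196b share the seed AGGUAGU, which no other gene in the RefSeq miRNA table carried. From miR-196a-5p to miR-196b-5p the change was A12C, with positions counted from the 5′ end of the miRNA, outside the seed. Neither seed of Mir615 was found on another gene. Of the bases in these mature sequences, 40.9% are G or C in miR-196a-5p and 45.5% in miR-196b-5p, against 63.6% in miR-615-3p and 77.3% in miR-615-5p.

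The hairpins of the miR-196 genes show how far their reads can be assigned, with both mature arms in capitals.
Mir196a-1: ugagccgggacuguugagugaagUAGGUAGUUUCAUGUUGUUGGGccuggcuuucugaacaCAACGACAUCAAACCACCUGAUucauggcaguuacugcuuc
Mir196a-2: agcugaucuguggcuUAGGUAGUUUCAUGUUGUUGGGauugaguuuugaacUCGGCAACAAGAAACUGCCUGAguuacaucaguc
Mir196b: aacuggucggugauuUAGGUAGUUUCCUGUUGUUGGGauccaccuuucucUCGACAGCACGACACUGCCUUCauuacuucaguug
The longest run shared by the Mir196a-1 and Mir196a-2 hairpins was 22 bases, exactly the mature miR-196a-5p. A read of that sequence alone therefore fits both genes. The longest run shared with Mir196b was 12 bases for Mir196a-2 and 11 for Mir196a-1, so a full miR-196b-5p read is distinct from miR-196a-5p.

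On GRCm38, Mir196b (gene ID 723820) lies at chr6:52230081-52230165 on the minus strand. It overlaps an exon, outside the coding sequence, of 2 Hoxa9 transcripts in GENCODE and an intron of another, so reads of Hoxa9 RNA there could not be told apart from those of Mir196b in this table. By RefSeq gene spans it lies 1031 bases from Hoxa10 and 2710 bases from Hoxa9. Mir196a-1 (gene ID 387191) lies at chr11:96265164-96265265 on the plus strand, 6064 bases upstream of Hoxb9, and overlaps no other GENCODE gene. Mir196a-2 (gene ID 723958) lies at chr15:102973350-102973434 on the plus strand, 1451 bases downstream of Hoxc10 and 3597 bases upstream of Hoxc9, within an intron of a long Hoxc5 transcript. Mir615 (gene ID 751557) lies at chr15:103014910-103015001 on the same strand, in an intron of Hoxc5 and 41.5 kb downstream of Mir196a-2. None of the 4 overlapped another row of the deposited table.

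**Figure D1:**
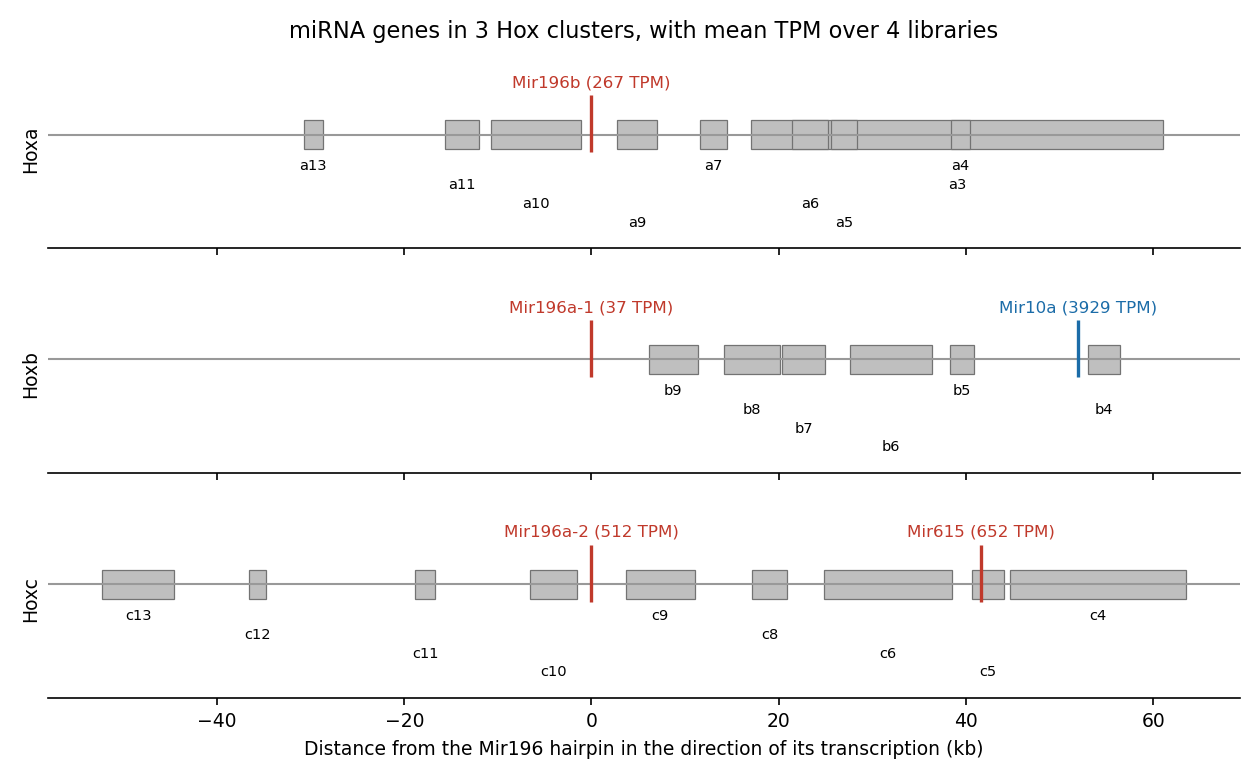
Position of miRNA genes (coloured lines, with their mean TPM over 4 libraries) and protein-coding Hox genes (grey boxes, RefSeq spans, labelled by cluster letter and group) against distance in kb from the Mir196 hairpin in the direction of its transcription, for features that lie within 65 kb of it. Mir196b, Mir196a-1 and Mir196a-2 hold the matching place in Hoxa, Hoxb and Hoxc, with mean levels of 267, 37.3 and 512 TPM, and Mir615 lies 41.5 kb beyond Mir196a-2. The split of reads between Mir196a-1 and Mir196a-2 is uncertain.

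Per library, 146255 to 1087240 reads fell on miRNA rows, as worked back from TPM, with library 4 the shallowest. TPM gives reads per gene length on a common scale. Whether different miRNAs entered these small RNA libraries equally well was not tested. Places and ratios between genes therefore compare listed levels, which may differ from amounts in the cells. Because the scale also covers genes not used here, each level is also given as a share of the TPM of all miRNA rows. That miRNA total was 42494, 65478, 61707 and 16399 TPM in libraries 1 to 4. Of the stromal markers, Mir199a-1 and Mir199b were at 1 TPM or more in every library and Mir199a-2 and Mir214 were listed at 0. The mesenchymal list summed to 128 to 1327 TPM, lowest in library 4. Neural markers (8 rows, Mir124a-1 listed at 0) summed to 37.3 to 3081 TPM, highest in library 3. Most of that was Mir9-3, at 35.2 to 2861 TPM, the only neural row at 1 TPM or more in every library. Epithelial markers (6 rows, none listed at 0 in all libraries) summed to 43.5 to 157 TPM and endothelial Mir126a gave 251 to 528 TPM. Smooth muscle Mir143 and Mir145a summed to 203 to 1118 TPM, striated muscle markers (6 rows, Mir1a-2 listed at 0) to 122 to 342 TPM, and liver Mir122 gave 23.5 to 143 TPM. Blood markers (5 rows, Mir486 and Mir223 listed at 0) summed to 1.49 to 14.9 TPM. In bulk libraries, fewer cells of a type and less RNA per cell cannot be told apart.

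All 4 genes were at 1 TPM or more in every library, as were 213 of the 643 miRNA rows. In order of mean level they ran Mir615, Mir196a-2, Mir196b and Mir196a-1, at places 18, 24, 37 and 109 among miRNA genes. Together they summed to 1473, 2167, 1472 and 759 TPM in libraries 1 to 4, a mean of 1468 ± 575 TPM (SD, n = 4). That was 3.45% ± 0.919 of the miRNA total (SD, n = 4), and the sum would take place 7 if it were a single gene. Many miRNA rows, Mir199a-2 and Mir214 among them, were listed at 0 in every library, and the reason was not tested. Places and shares hold for the levels as listed.

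**Figure D2:**
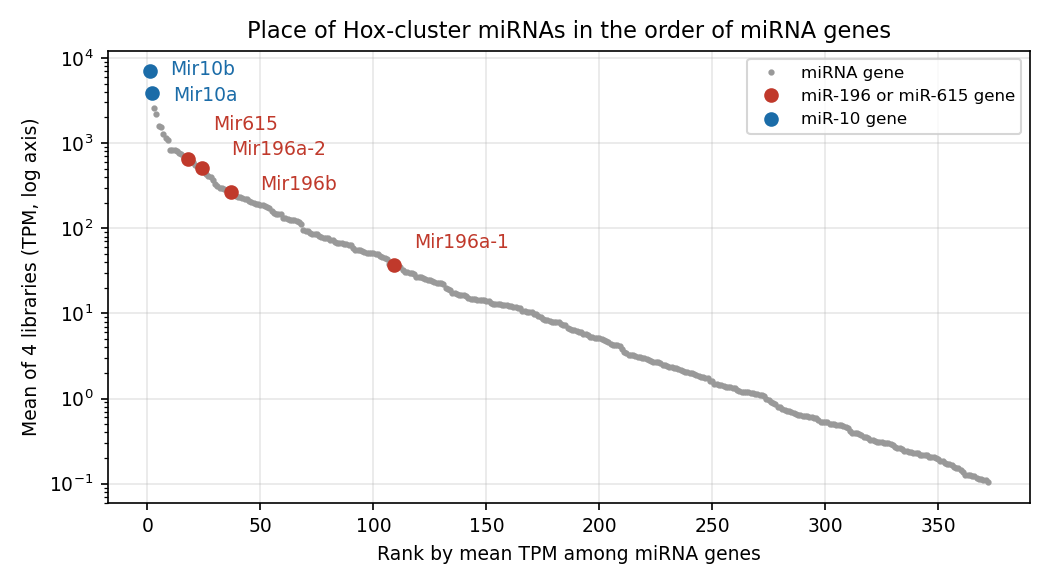
Mean TPM over 4 libraries (log axis) against rank for the 372 miRNA genes with a mean of at least 0.1 TPM, each point a gene. Mir615, Mir196a-2 and Mir196b (red) lie at places 18, 24 and 37, Mir196a-1 (red) at place 109, and Mir10b and Mir10a (blue) at places 1 and 2.

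Mir615 was the most abundant of the 4, at 534, 1021, 610 and 442 TPM in libraries 1 to 4, a mean of 652 ± 255.6 TPM (SD, n = 4). Its level was highest in library 2 and lowest in library 4. As a share of the miRNA total it took 1.26%, 1.56%, 0.989% and 2.69% in libraries 1 to 4, so library 4 was lowest by TPM and highest by share. Its place among miRNA genes ran over 8 to 22, with place 8 in library 4. Behind the library 4 value stood 4379 reads, with a 95% Poisson interval of 429 to 455 TPM. This interval covers counting error only. Library 4 also had the fewest reads, the lowest mesenchymal share of miRNA TPM at 0.779%, against 1.39% to 3.12% in the other libraries, and the highest share of the liver miRNA Mir122, at 0.875% against 0.0359% to 0.216%. By share it was also highest for endothelial Mir126a, at 1.53% against 0.659% to 0.856%, for the striated muscle list, at 1.37% against 0.198% to 0.805%, and for the epithelial list, at 0.265% against 0.0707% to 0.255%. Their part in the Mir615 share was not tested.

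Mir196a-2, the miR-196a gene of the Hoxc cluster, was at 653, 737, 469 and 190 TPM in libraries 1 to 4, a mean of 512 ± 242 TPM (SD, n = 4). It was highest in library 2 and lowest in library 4. Its share of the miRNA total was 1.54%, 1.13%, 0.759% and 1.16%, so by share library 1 was highest and library 3 lowest. Its places ran over 18 to 31 among miRNA genes.

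Mir196b of the Hoxa cluster ran over places 34 to 42 among miRNA genes. It was at 246, 358, 348 and 114 TPM in libraries 1 to 4, a mean of 267 ± 114 TPM (SD, n = 4). By TPM it spanned 3.14-fold between libraries, but its share of the miRNA total was 0.579%, 0.547%, 0.564% and 0.695%, a span of 1.27-fold. The coefficient of variation of that share (SD over mean) was 11.2%. Among the 170 miRNA genes with a mean of at least 10 TPM, this was the third lowest, against a median of 37.6%.

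Mir196a-1, the miR-196a gene of the Hoxb cluster, was at 40.1, 50.5, 45.2 and 13.5 TPM in libraries 1 to 4, a mean of 37.3 ± 16.5 TPM (SD, n = 4). Its places within libraries ran over 101 to 107, so place 109, taken by mean level, was not reached in any library. Its share of the miRNA total was 0.0944%, 0.0771%, 0.0733% and 0.0821%. The coefficient of variation of its share was 11.3%, directly after that of Mir196b in the same order, while Mir196a-2 with 27.8% was at place 54 and Mir615 with 46.1% at place 115. By TPM the order was another one. Mir615 had the lowest coefficient of variation of the 4 there, 39.2% at place 12, followed by Mir196b with 42.7% at place 21, Mir196a-1 with 44.1% at place 25 and Mir196a-2 with 47.3% at place 38, against a median of 58.8%. Which of the 4 varied least between libraries thus depended on the scaling, and these places are a description of these libraries. The library 4 value of Mir196a-1 rested on 148 reads, with a 95% Poisson interval of 11.4 to 15.8 TPM.

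**Figure D3:**
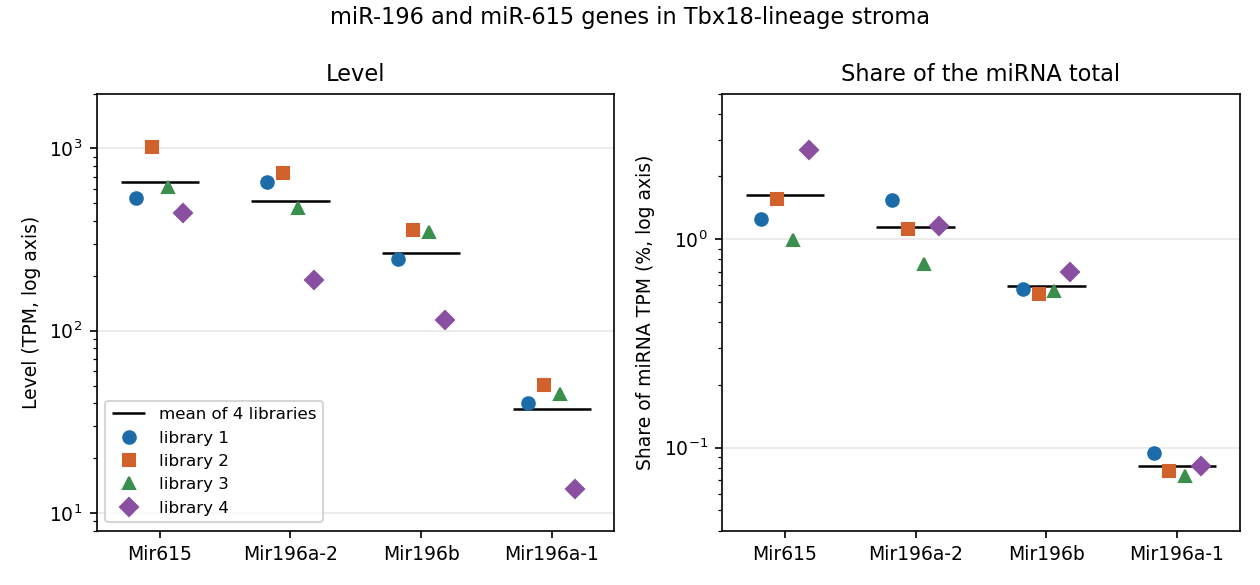
Levels (left, TPM on a log axis) and shares of the miRNA total (right, percent of miRNA TPM on a log axis) of the 4 genes, with a point for each library and a line at the mean of 4 libraries. Library 4 is lowest for every gene by TPM but highest for Mir615, at 2.69%, and Mir196b, at 0.695%, by share. The miRNA total was also lowest in library 4, at 16399 TPM.

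Ratios within a library compare the 4 genes without the scaling between libraries. Each was the log2 ratio of TPM plus 1, tested by flipping the signs of the library values (an exact permutation test, two-sided), whose smallest possible p is 0.125. No ratio could therefore pass 0.05. In all, 8 ratios were compared, and the sign of 7 was shared by every library. Each of those 7 gave p = 0.125 in the exact test, with a Benjamini-Hochberg adjusted p of 0.143 over the 8.

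Mir615 exceeded Mir196a-1 by 4.17 ± 0.58 log2 units (SD, n = 4), and Mir196b by 1.34 ± 0.49 (SD, n = 4), 2.54-fold, each in 4 of 4 libraries. Mir615 and Mir196a-2, the neighbours in the Hoxc cluster, did not differ beyond their spread. Their log2 ratio was -0.29, 0.47, 0.38 and 1.21 in libraries 1 to 4, a mean of 0.44 ± 0.62 (SD, n = 4; exact p = 0.25, adjusted p = 0.25). Mir615 was thus lower than Mir196a-2 in library 1 and higher in the other 3. Without library 4 the mean was 0.19, and without library 1 it was 0.69. In recovered reads, Mir615 against Mir196a-2 stood at 12559 against 14193 in library 1 and at 4379 against 1738 in library 4.

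The copies of miR-196a were unequal. Mir196a-1 lay below Mir196a-2 by a log2 ratio of -3.73 ± 0.28 (SD, n = 4), a 13.2-fold difference, in 4 of 4 libraries. Of all reads listed under either copy, Mir196a-1 held 6.86% (95% Clopper-Pearson interval 6.47% to 7.28%) in library 1, 7.59% (7.16% to 8.04%) in library 2, 10.4% (9.74% to 11.0%) in library 3 and 7.85% (6.67% to 9.15%) in library 4. The mean was 8.17% ± 1.53 (SD, n = 4), with library 3 above the intervals of the other 3. Both genes yield the same miR-196a-5p, and the sources used here do not say how reads that fit several places were assigned, so this split is uncertain. Unequal numbered copies were not particular to miR-196a. By mean level, Mir199a-1 was at 764 and Mir199a-2 at 0 TPM, and Mir9-3 at 830 against 4.93 for Mir9-1 and 0.617 for Mir9-2. Mirlet7a-2 and Mirlet7a-1 lay closer, at 290 and 50.6 TPM. Why Mir199a-2 was listed at 0 in every library was not tested. The sum of both miR-196a copies was 693, 787, 514 and 203 TPM in libraries 1 to 4, a mean of 549 ± 257 TPM (SD, n = 4). It too would differ if reads that fit both copies had been discarded or counted at each place, and it moves with the split because TPM divides by a gene length of 102 bases for Mir196a-1 and 85 bases for Mir196a-2.

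Summed over its copies, miR-196a exceeded Mir196b by 1.00 ± 0.40 log2 units (SD, n = 4), 2.00-fold, in 4 of 4 libraries. How this ratio depends on the assignment of reads that fit both copies was not tested, and miR-196b-5p comes from 1 gene only. The ratio was 1.49, 1.13, 0.56 and 0.83 in libraries 1 to 4, nearest to equal in library 3. Mir196b held 26.0%, 31.0%, 40.0% and 35.6% of the reads listed under the 3 miR-196 genes. Mir196a-2 alone exceeded Mir196b by 0.90 ± 0.42 (SD, n = 4), and Mir196a-1 lay below it at -2.82 ± 0.18 (SD, n = 4), each in 4 of 4 libraries.

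**Figure D4:**
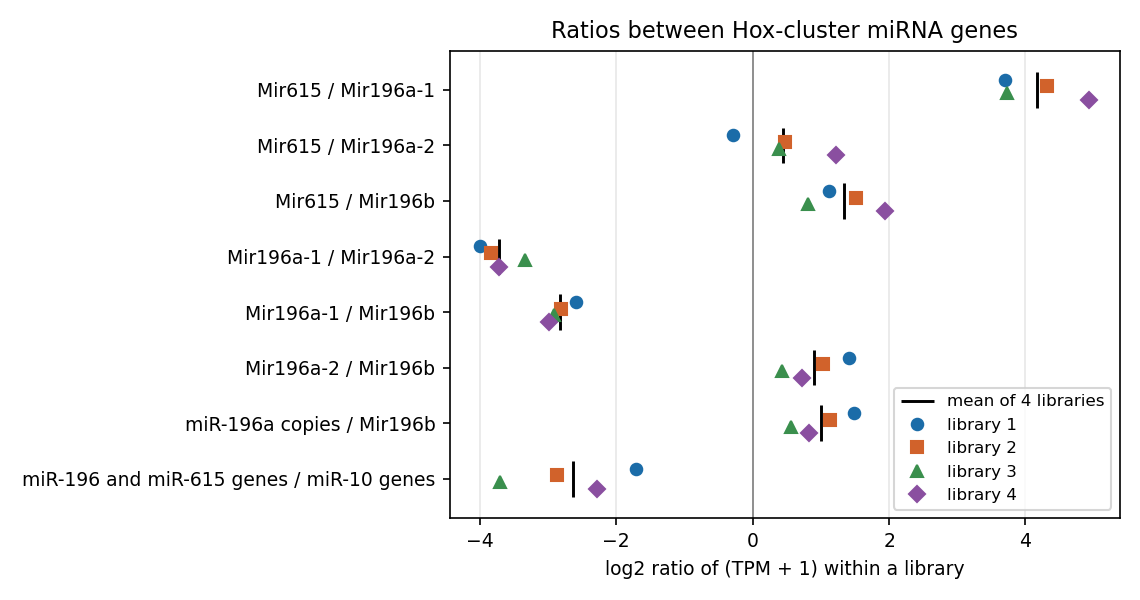
Log2 ratios of TPM plus 1 within each library (points) with the mean of 4 libraries (line) for 8 pairs, the first-named gene on top of the ratio. Only the Mir615 to Mir196a-2 ratio has points on both sides of 0, from -0.29 in library 1 to 1.21 in library 4.

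Set against Mir10a and Mir10b, the other miRNA rows within the Hox clusters, the 4 genes were low. Their sum lay below that of the miR-10 genes by a log2 ratio of -2.64 ± 0.86 (SD, n = 4), a 6.24-fold difference, in 4 of 4 libraries. That ratio was -1.71, -2.87, -3.71 and -2.28 in libraries 1 to 4, nearest to equal in library 1 and widest in library 3. Mir615, a mean 45.8% of the TPM of the 4 genes, itself lies 3095 bases from Hoxc4. The ratio therefore does not divide genes near group 4 from genes far from it. Long noncoding RNAs of the Hox clusters were far lower still in these small RNA libraries. The 4 genes had means of 37.3 to 652 TPM, against 0.00220 to 0.0354 TPM for all 7 such rows. The highest of those were Gm53, which lies upstream of Mir196a-1, at 0.0354 TPM, Hoxaas3 at 0.0122, Mira at 0.00577, Hoxd3os1 at 0.00415 and Hotair, a noncoding RNA of the Hoxc cluster, at 0.00306 TPM. Hoxd3os1 was above 0 in 2 libraries, Gm53, Hoxaas3 and Mira in 3 and Hotair in 4. TPM divides by gene length, so a read gives a lower value on these longer rows, and their reads were not recovered. With a small RNA kit, levels of the full-length transcripts were not measured.

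By mean level, the rows next to Mir615 were Mir125b-1 at 663 ± 583 and Mir218-1 at 608 ± 361 TPM (SD, n = 4), and those next to Mir196a-2 were Mir370 at 535 ± 179 and Mirlet7c-1 at 486 ± 456 TPM (SD, n = 4). Mir196b lay between Mir382 at 268 ± 142 and Mir134 at 248 ± 125 TPM (SD, n = 4), and Mir196a-1 between Mir181a-2 at 37.4 ± 19.6 and Mirlet7b at 36.1 ± 63.1 TPM (SD, n = 4). No gene of the 4 stood above or below such a neighbour in all 4 libraries.

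The profile of each gene over the 4 libraries was set against those of 169 other miRNA genes with a mean of at least 10 TPM, as the root mean square difference of log2(TPM + 1) centred on each gene's mean. Smaller values mean more alike profiles, and 4 libraries with shared scaling make many profiles alike. Nearest to Mir615 were Mir128-1 at 0.13, Mir222 at 0.14 and Mir381 at 0.17, against a median of 0.67 over all rows. Mir196a-2 was nearest to Mir484 at 0.12, Mir744 at 0.13 and Mir673 at 0.15, with a median of 0.56. For Mir196b the nearest were Mir296 at 0.08, Mir494 at 0.09 and Mir148a at 0.11, with a median of 0.45, and for Mir196a-1 they were Mir210 at 0.08, Mir149 at 0.14 and Mir28a at 0.14, with a median of 0.47. Among themselves, Mir196b and Mir196a-1 were the most alike, at 0.15, which made Mir196b the 5th of 169 for Mir196a-1. The neighbours Mir615 and Mir196a-2 were the least alike of the 4, at 0.53.

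Possible pairing of the mature miRNAs with Hox mRNAs was described from sequence, since the table held no protein-coding Hox row and their mRNA levels were not analysed here. Of 20900 mouse genes with a GENCODE 3′ UTR of at least 22 bases, taking the longest of each gene, only Hoxb8 held a place where all but 1 of the 22 bases of miR-196a-5p could pair without a gap. No other gene had such a place even with 4 bases unpaired. Hoxb8 begins 14.2 kb downstream of Mir196a-1 in the same cluster. The sites below are the sense strand of GRCm38 transcripts, with the bases opposite the seed in capitals. Sites in Hoxa7 and Hoxc8 are shown as examples from the other clusters that hold a miR-196 gene. They are not a full list of Hox genes with a seed match.
Hoxb8, chr11:96284888-96284909, plus strand: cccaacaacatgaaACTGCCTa
Hoxa7, chr6:52215210-52215231, minus strand: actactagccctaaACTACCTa
Hoxc8, chr15:102992976-102992997, plus strand: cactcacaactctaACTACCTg
Relative to a perfect miR-196a-5p site, the Hoxb8 site carried A5G, counted from the 5′ end of the miRNA, which leaves a G:U wobble pair in the seed. For miR-196b-5p the same site carried A5G and G12T, so 20 of 22 bases could pair. The Hoxa7 site allowed 14 of 22 pairs with miR-196a-5p, the most of its 4 seed matches, against 13, 12 and 9 at the others. The Hoxc8 site allowed 12 of 22, as did the other seed match in that gene. How many pairs would arise by chance was not tested.

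The exact seed match ACTACCT, searched on the sense strand, was in the first 500 bases of the 3′ UTR of 283 of 14283 genes whose UTR was that long (1.98%). Over whole UTRs of any length, 1281 of 21010 genes (6.1%) held this match, and Hoxa7 held 4 of them in its UTR. The Hoxa7 site shown above starts at UTR base 486, so its seed match ends beyond the first 500 bases. The other Hoxa7 sites start at UTR bases 296, 333 and 465, and their seed matches lie within the first 500 bases. The corresponding match for miR-615-3p, GGCTCGG, was in that window in 144 of 14283 genes (1.01%), and that for miR-615-5p, GGACCCC, in 472 of 14283 (3.3%). A match says only that these letters stand in the window.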

How the data were processed

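The 4 libraries of sorted cells form 1 group. Per the labels' protocols, total RNA was extracted from cells sorted into lysis reagent and went into NEBNext small RNA libraries, sequenced in 1 direction over 75 bp. The authors deposited TPM, 1 row per Entrez gene ID and 1 column per library. The submitters' processing notes name the build mm10 (GRCm38). How reads were aligned, counted and split between matching places is not stated in the sources used here.

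Gene IDs were joined to RefSeq genes of GRCm38.p6, which matched 2541 of 2976 rows. In each library, TPM multiplied by gene length came in whole steps for 100% of nonzero miRNA rows (tolerance 0.01), and the smallest nonzero step was taken as 1 read. The reads so recovered served for depth, shares and an alternative, and no count model was fitted. Rows are precursor genes, so arms were not separated. The members and lists were chosen with earlier results of these data known. Named genes are the 4 members, the miR-10 genes, the 5 highest other rows within the Hox clusters, the rows next to each member in mean level, the 3 most alike rows for each member, the let-7 genes and the cell type markers. Read recovery and the likeness measure were tested on simulated data. Dixon's test used the 95% critical value of 0.829. Overlaps, transcripts and 3′ UTRs came from GENCODE vM21. Alternatives covered the pseudocount (0.1 and 10 TPM), rescaling, reads, filters on low values and leaving out each library. Tools were Python 3.11.15 with scipy 1.17.1, pandas 2.3.3, numpy 2.4.6 and matplotlib 3.10.9.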

Additional observations from a re-analysis of the deposited data

Results flagged for a closer look

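Of 36 sets of 4 library values tested with Dixon's test, 1 had a library apart from the others. Mir196a-1 held 6.23% of the reads of the 3 miR-196 genes in library 3, against 5.05% to 5.24% in the other 3 libraries. The 95% Clopper-Pearson interval in library 3 was 5.84% to 6.64%, and that of library 4, with 148 reads of Mir196a-1, was 4.29% to 5.91%. Chance flags about 1 in 20 such sets. Neural markers, mostly Mir9-3, were also highest in library 3, at 3081 TPM, and their part in this share was not tested.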

How the results depend on the processing

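All 8 ratios kept their direction with a pseudocount of 0.1 or 10 TPM, with recovered reads, after rescaling and without each library in turn. For the 7 with the same sign in every library, only the use of recovered reads could have changed the direction. The other settings could not, so they are no check on the direction of those 7. None of the 8 could pass 0.05 in the exact test. The Mir615 to Mir196a-2 ratio ranged from 0.43 to 0.56 under the first 4 settings. No comparison between groups was possible because there is 1 group. Rescaled to 1000000 over miRNA rows, levels were 16242 for Mir615, 11445 for Mir196a-2, 5962 for Mir196b, 817 for Mir196a-1, 12262 for miR-196a and 34466 for the 4 genes, by construction larger than in TPM. In reads not divided by length, Mir615 was at place 11 and Mir196a-1 at place 103. With only rows of a mean of at least 100 TPM compared, 1 of the 3 most alike genes was shared for Mir196a-2, 1 for Mir196b and 0 for Mir196a-1, since fewer genes entered. Without each library in turn, mean levels ranged over 529 to 722 TPM for Mir615, 437 to 619 for Mir196a-2, 236 to 317 for Mir196b and 32.9 to 45.3 for Mir196a-1. Depth limits Mir196a-1 in library 4 most, with 148 reads.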

Other observations

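The seeds of miR-196 and of let-7, regulators of the timing of development, overlap by 6 bases (AGGUAG) at an offset of 1. For comparison with miR-196a-5p above, let-7a-5p from Mirlet7a-1 on chromosome 13 is shown with its seed in capitals.
let-7a-5p: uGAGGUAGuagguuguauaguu
The 3 miR-196 genes summed to 939, 1146, 862 and 317 TPM in libraries 1 to 4, against 3125, 1122, 451 and 350 TPM for the 12 rows whose RefSeq mature sequence carries the let-7 seed. The ratio was 0.300, 1.02, 1.91 and 0.906, so the miR-196 sum was the lower in libraries 1 and 4 and the higher in libraries 2 and 3. Both sums depend on the unstated handling of reads that fit several genes. The let-7 sum moved more between libraries than the miR-196 sum.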
